A study of Danio rerio with 25 samples.

Results

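The 7 genes described here belong to 3 growth factor systems and were followed through the larval and adult zebrafish epicardium: the ErbB ligand gene *nrg1* and the receptor genes *erbb2* and *erbb3b*, the VEGF ligand genes *vegfaa*, *vegfab* and *vegfc*, and the angiopoietin gene *angpt1*. They were picked by name, and all 7 were found among the 31275 genes of the RNA table. In the ATAC table, in which reads are counted in regions of open chromatin (peaks), 48 of 61954 peaks were annotated to one of these genes and to no other gene. *angpt1* had 13 peaks, *vegfaa* 11, *nrg1* and *vegfab* 7 each, *vegfc* 6, *erbb2* 4 and *erbb3b* 0.

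The epicardium is the outer cell layer of the heart and a known source of secreted signals to the muscle and vessels beneath it. Neuregulin 1 binds ErbB3 or ErbB4, which pair with ErbB2, a receptor with no ligand of its own, and in zebrafish Nrg1 is known as a mitogen of heart muscle cells during regeneration. The VEGF-A ligands, present in zebrafish as the gene pair *vegfaa* and *vegfab*, act on endothelial receptors to drive vessel growth, Vegfc is known for lymphatic growth, and angiopoietin 1 activates the endothelial receptor Tek (Tie2).

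RNA was polyadenylated and amplified with a low-input kit, and open chromatin was tagged with the Tn5 transposase. Larvae were 5 days post fertilization and untreated. Larval RNA came from sorted (FACS) *tcf21*:H2B-Dendra2 hearts, with 3 libraries of epicardium and 3 of non-epicardium. Adult RNA came from *tcf21*:BirA-mCherry epicardium by nuclear pulldown, with 3 libraries at 3 days after cryoinjury (replicates 7, 8 and 9) and 2 at 3 days after sham surgery (replicates 4 and 12). All ATAC cells were sorted: *tcf21*:H2B-Dendra2 larval epicardium and non-epicardium (2 libraries each), *tbx18*:myr-Citrine larval epicardium and non-epicardium (2 each), and adult *tcf21*:BirA-mCherry cryoinjury (4) and sham (2). The regulatory sequences of *tcf21* or *tbx18* thus decided which cells were collected, and adult heart cells outside the epicardium were not analysed here. Where adults are set against larvae, stage, surgery, transgene and, for RNA, whole cells against nuclei cannot be told apart. The labels do not say whether libraries came from separate animals or pools, so p-values measure the spread between libraries only.

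Library totals ranged from 4635226 to 8371594 counts in RNA and from 755606 to 6248597 in ATAC, and 3 counts stood for 0.309 to 0.717 CPM in RNA and 0.539 to 4.51 CPM in ATAC (CPM, counts scaled by TMM to a common library total). The 5 epicardial markers were *tcf21*, *tbx18*, *wt1a*, *wt1b* and *aldh1a2*. The regulatory sequences of *tcf21* also selected the cells of these RNA libraries. The summed level of the 5 was 515 to 1429 CPM in larval epicardium and 10.6 to 18.3 in non-epicardium. It was 542 to 571 CPM after cryoinjury and 371 to 495 after sham surgery. Adult libraries also held RNA of other heart cells. The sum of 8 cardiomyocyte markers was 183 to 1463 CPM in larval epicardium and 5257 to 15671 CPM in larval non-epicardium. Over both adult groups it was higher still, 21000.1 to 47557 CPM. Called means an adjusted p under 0.05 in edgeR's quasi-likelihood test, with Benjamini-Hochberg adjustment over all 20745 genes or 61883 peaks tested. All 7 genes and all 48 peaks passed the filter on low counts.

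Per kilobase of transcript, which allows levels to be set side by side between genes, *vegfaa* led in larval epicardium, with 97.4 ± 23.1 CPM per kb (SD, n = 3). *vegfc* followed with 8.53 ± 7.12, *vegfab* with 7.02 ± 5.67, *erbb2* with 5.53 ± 1.99 and *angpt1* with 3.97 ± 1.74 CPM per kb. The neuregulin gene *nrg1* (0.991 ± 0.485) and its receptor gene *erbb3b* (1.05 ± 0.470) were lowest. In sham adults *vegfab* led, with 157 ± 31.7 CPM per kb (SD, n = 2), ahead of *vegfaa* (34.0 ± 3.25) and *angpt1* (32.1 ± 30.2). After cryoinjury *vegfab* stood at 43.0 ± 18.2 CPM per kb (SD, n = 3), *vegfaa* at 19.4 ± 14, *angpt1* at 14.7 ± 12.9 and *nrg1* at 14.6 ± 13.

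**Figure D1:**
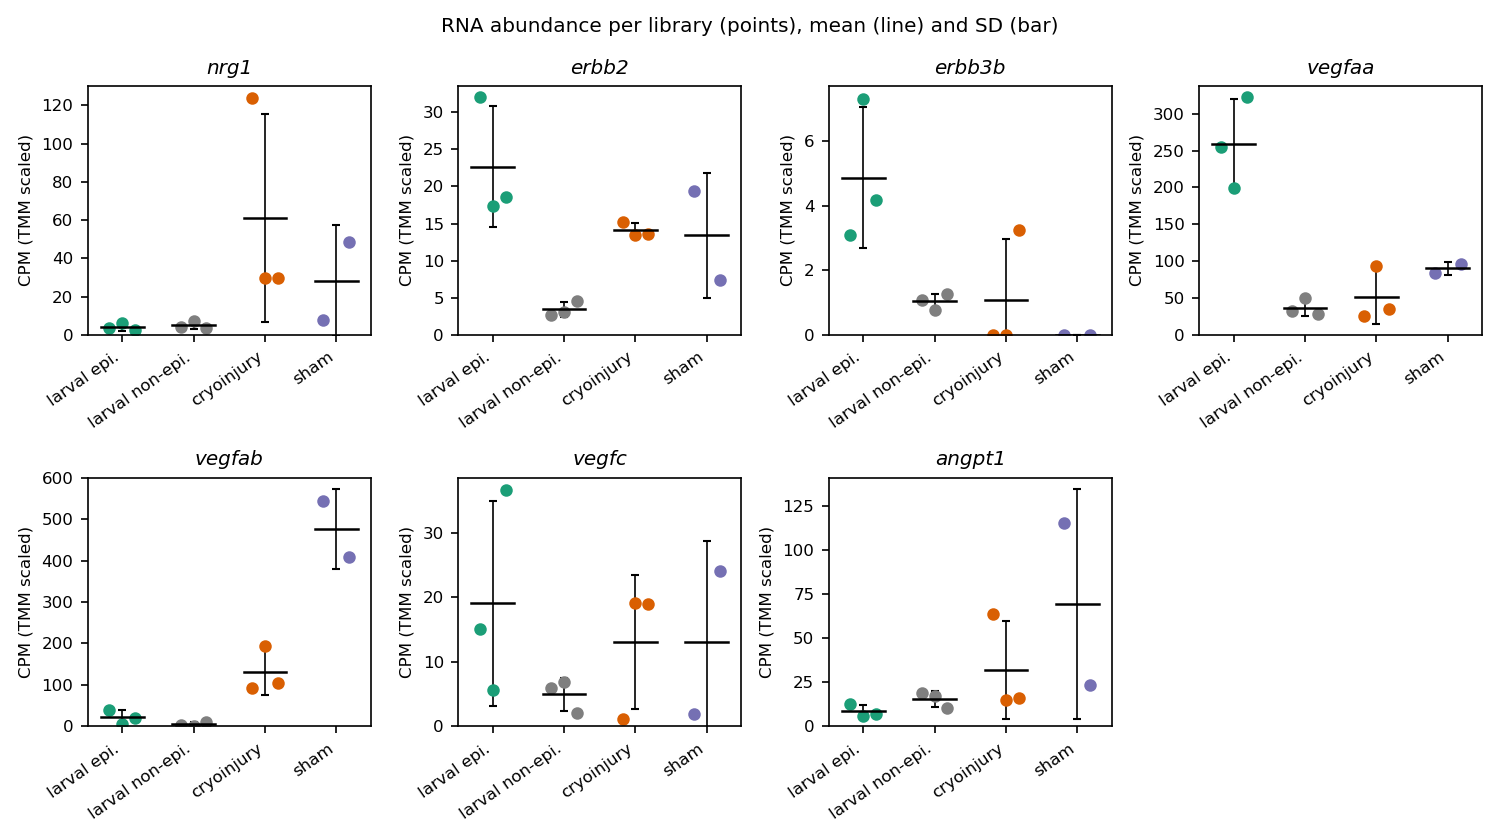
RNA abundance of the 7 genes in each library, in TMM-scaled CPM on linear axes that start at 0, with the group mean (line) and SD (bar) for 3 larval epicardium, 3 larval non-epicardium, 3 cryoinjury and 2 sham libraries. All 3 larval epicardium points of *vegfaa* lie above every other library, and both sham points of *vegfab* lie above every other library.

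The larval comparison asked which of these genes set the epicardium apart from the remaining heart cells. *vegfaa* and *erbb2* were higher in epicardium, 7.11-fold and 6.54-fold, and the other 5 genes were not called. Of all genes tested, 13.4% were called in this comparison, 5.68% higher and 7.77% lower in epicardium. The median log2 fold change was 1.98 over the 7 genes and 0.32 over all genes. With bulk libraries, fewer expressing cells and less RNA per cell cannot be told apart.

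*vegfaa* (ENSDARG00000103542) had 255, 199.7 and 322 CPM in the larval epicardium libraries A, B and C, and 32.0, 49.3 and 28.0 CPM in the non-epicardium libraries A, B and C. The lowest epicardium library lay above the highest non-epicardium library. The log2 fold change was 2.83 (SE 0.54, adjusted p = 0.00135, edgeR), and it was called whichever of the 6 larval libraries was left out. *vegfab* (ENSDARG00000034700), its paralogue, had 39.1, 4.74 and 20.1 CPM in epicardium and 4.34, 0.573 and 11.3 CPM in non-epicardium, and the groups overlapped. Its log2 fold change of 1.98 (SE 0.75) had an adjusted p of 0.0896 (edgeR). The adjusted p was 0.0228 with libraries scaled by total count and 0.0421 with only the compared groups fitted. It was 0.0417 without epicardium library B and 0.0174 without non-epicardium library C. It was under the threshold in no other alternative and with no other library left out. With 1 library left out the log2 fold change ran from 1.21 to 3.12, and the adjusted p reached 0.373 (edgeR). *vegfc* (ENSDARG00000069640) had 15, 5.56 and 36.6 CPM against 5.96, 6.88 and 2.09 CPM, a log2 difference of 1.93 (SE 1.05, adjusted p = 0.249, edgeR). Its groups overlapped, and with only the compared groups fitted the adjusted p was 0.0301. No other alternative called it, nor did any fit with 1 library left out (adjusted p from 0.219 to 0.601, edgeR).

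*erbb2* (ENSDARG00000026294) had 32.1, 17.4 and 18.6 CPM in epicardium and 2.71, 3.06 and 4.59 CPM in non-epicardium, with no overlap. The log2 fold change was 2.71 (SE 0.76, adjusted p = 0.0201, edgeR), and the adjusted p rose to 0.0773 without epicardium library A, 0.0775 without non-epicardium library A and 0.0899 without non-epicardium library B. *erbb3b* (ENSDARG00000036993) was scarce, with 23, 71 and 33 counts in the epicardium libraries A, B and C and 6, 4 and 6 in those of non-epicardium. These counts do not overlap either, and the estimate of 2.22 on the log2 scale (SE 1.41) had an adjusted p of 0.336 (edgeR). With only the compared groups fitted the adjusted p was 0.0422. *erbb3b* was called under no other alternative and in no fit with 1 library left out (adjusted p from 0.39 to 0.57, edgeR). The ligand genes *nrg1* and *angpt1* were not called. *nrg1* (ENSDARG00000104314) had 3.65, 6.39 and 2.42 CPM in epicardium and 4.34, 7.26 and 3.76 CPM in non-epicardium (log2 fold change -0.30, SE 0.77, adjusted p = 0.822, edgeR). *angpt1* (ENSDARG00000030364) had 12.8, 5.66 and 7.25 CPM against 19.1, 17.4 and 10.4 CPM (log2 fold change -0.87, SE 0.72, adjusted p = 0.461, edgeR).

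The wider pathways were read from lists of named genes. Of 8 VEGF receptor genes tested, 3 were higher in larval epicardium and 0 lower: *kdrl*, an endothelial VEGF receptor (log2 fold change 3.17), and the co-receptor genes *nrp1a* (3.05) and *nrp2a* (2.56). Of 7 VEGF ligand and processing genes, *vegfaa* and *ccbe1*, a secreted factor needed to process Vegfc, were higher (*ccbe1* 4.08). Of 12 ErbB receptor and docking genes, 4 were higher and 0 lower, namely *erbb2*, *egfra* (2.92), *lrig1* (2.73) and the adaptor gene *shc1* (2.25). Of 8 ErbB ligand genes, *btc* was higher (2.52) and *hbegfb* lower (-5.42). Of 13 angiopoietin and Tie genes, 0 were higher and 3 lower, *angptl2a* (-2.45), *angptl2b* (-2.61) and *angptl7* (-8.51). Of 19 hypoxia genes, only the glucose transporter gene *slc2a1b* was called (3.36, higher). Of 12 endothelial markers 6 were lower and only *kdrl* was higher, so *kdrl* moved against its list, and 7 of 8 cardiomyocyte markers were lower. Of 8 erythrocyte markers 7 were lower, their sum being 12.5 to 25.6 CPM in epicardium and 26141 to 35821 CPM in non-epicardium, and 3 of 8 leukocyte and 3 of 6 mural markers were lower too. Their part in the values of the 7 genes was not tested.

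**Figure D2:**
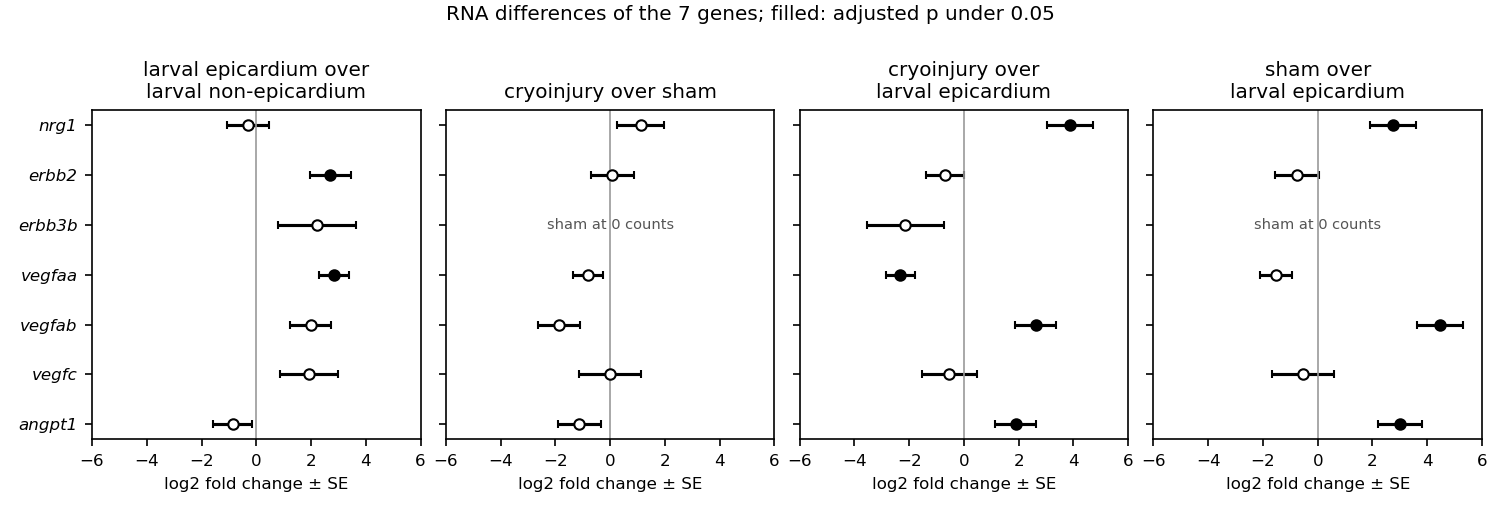
Log2 fold change (x axis) with its SE for each of the 7 genes in 4 RNA comparisons, filled where the adjusted p is under 0.05. *vegfaa* lies at 2.83 in larval epicardium over non-epicardium and at -2.33 in cryoinjury over larval epicardium, where *vegfab* lies at 2.62; *erbb3b* is not drawn against sham, where it had 0 counts.

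Adult epicardium was then compared with larval epicardium. The VEGF-A genes moved in opposite directions, *vegfab* and *nrg1* being higher in both adult groups and *vegfaa* lower after cryoinjury. Both adult groups were set against the same 3 larval libraries, so their agreement is not independent. After cryoinjury 3 of the 7 genes were higher and 1 lower, where 12.1% and 26.0% of all genes were (38.1% in all). After sham surgery 3 were higher and 1 lower, where 11.5% and 25.6% of all genes were (37.2% in all). The median log2 fold change was -0.54 over the 7 genes and -0.59 over all genes after cryoinjury, and -0.55 and -0.92 after sham surgery.

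*vegfab* had 93.0, 194 and 105 CPM in cryoinjury replicates 7, 8 and 9 and 544 and 408 CPM in sham replicates 4 and 12, all above the highest larval value of 39.1 CPM. The increase was 6.13-fold after cryoinjury (log2 fold change 2.62, SE 0.75, adjusted p = 0.0102, edgeR) and 22.3-fold after sham surgery (4.48, SE 0.84, adjusted p = 0.000717, edgeR), and both were called whichever library of the compared groups was left out. *vegfaa* had 25.6, 94.0 and 34.9 CPM after cryoinjury and 84.1 and 96.3 CPM after sham surgery, all under the lowest larval epicardium value. The difference from larval epicardium was 5.03-fold after cryoinjury (log2 fold change -2.33, SE 0.53, adjusted p = 0.00294, edgeR). After sham surgery it was -1.52 (SE 0.60), with an adjusted p of 0.0511 (edgeR). That value passed the threshold with DESeq2 size factors (0.0193), total count scaling (0.00869) and the trend on abundance removed (0.0225). The DESeq2 test (0.0106) and a fit of only the compared groups (0.0333) called it too. It missed the threshold without a filter on low counts (0.0692, edgeR) and without each larval epicardium library. With 1 library of either group left out, the log2 fold change ran from -1.65 to -1.36. With a sham library left out only 1 sham library remained, so no call is given there.

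The balance within the pair can be read inside each library, where scaling plays no part. Per length, *vegfaa* exceeded *vegfab* 7.45-fold, 48.1-fold and 18.3-fold in larval epicardium, and 8.42-fold, 98.2-fold and 2.83-fold in larval non-epicardium. The 98.2-fold value, in library B, rests on only 3 counts of *vegfab* against 258 of *vegfaa*, so its size is uncertain. In adults *vegfab* exceeded *vegfaa* instead, 3.18-fold, 1.81-fold and 2.63-fold after cryoinjury and 5.66-fold and 3.71-fold after sham surgery. All 6 larval libraries thus lay on one side of equality and all 5 adult libraries on the other. How reads that match both paralogues were counted is not given in the sources used here.

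**Figure D3:**
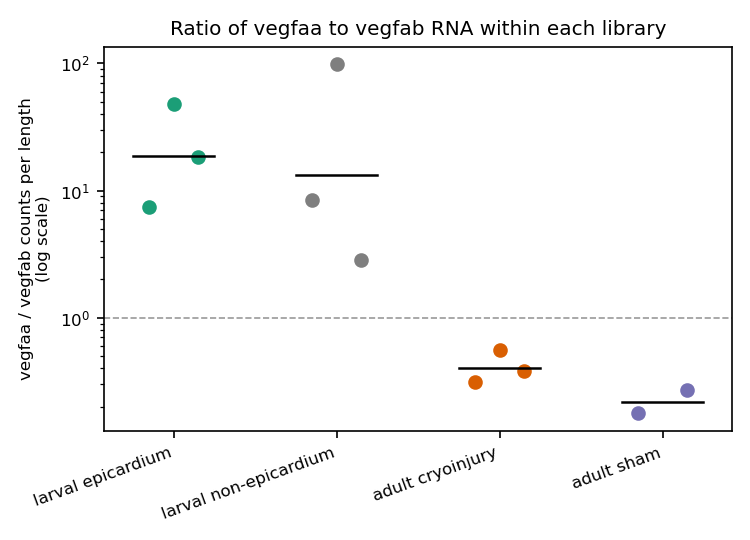
Ratio of *vegfaa* to *vegfab* counts per transcript length in each RNA library (points, log axis) with the geometric mean of each group (line); the dashed line marks equality. Larval epicardium lies between 7.45 and 48.1, whereas cryoinjury lies between 0.314 and 0.554 and sham at 0.177 and 0.270.

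*nrg1* had 124, 29.6 and 29.7 CPM after cryoinjury and 7.65 and 48.7 CPM after sham surgery, all above the 3 larval epicardium libraries. The increase was 14.6-fold after cryoinjury (log2 fold change 3.87, SE 0.84, adjusted p = 0.00200, edgeR), and was called whichever library was left out. After sham surgery it was 6.75-fold (2.75, SE 0.85, adjusted p = 0.0206, edgeR), with a log2 fold change of 0.85 (adjusted p = 0.481) without sham replicate 12. That call was also lost without larval epicardium library A (adjusted p = 0.0594) or C (0.0652) and with total count scaling (0.0588). *angpt1* had 63.9, 15.1 and 16.3 CPM after cryoinjury and 116 and 23.3 CPM after sham surgery. Cryoinjury replicate 7 and sham replicate 4 were high. The increase over larval epicardium was 3.70-fold after cryoinjury (log2 fold change 1.89, SE 0.73, adjusted p = 0.0483, edgeR) and 8.08-fold after sham surgery (3.01, SE 0.80, adjusted p = 0.0103, edgeR). Without cryoinjury replicate 7 the first was 0.88 (adjusted p = 0.374), and without sham replicate 4 the second was 1.49 (adjusted p = 0.179). The first also missed the threshold without each larval epicardium library, under each of the 3 other scalings, with the DESeq2 test and with only the compared groups fitted (adjusted p from 0.0505 to 0.135).

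Of the receptor genes, *erbb2* was not called in either adult group and *erbb3b* was lower after sham surgery. *erbb2* had 15.2, 13.5 and 13.6 CPM after cryoinjury and 19.4 and 7.41 CPM after sham surgery, and neither group was called against larval epicardium (log2 fold changes -0.69 and -0.76, adjusted p 0.479 and 0.478, edgeR). *erbb3b* had 0, 0 and 17 counts after cryoinjury and 0 and 0 counts after sham surgery, against 23, 71 and 33 in larval epicardium. It was at least 6.80-fold lower after sham surgery, computed against the higher of the CPM values that 3 counts stand for in the sham libraries (adjusted p = 0.0276, edgeR), and this call was lost with the trend on abundance removed (adjusted p = 0.121). The call was also lost without sham replicate 4, sham replicate 12 or larval epicardium library B. After cryoinjury it was not called (-2.14, SE 1.41, adjusted p = 0.248, edgeR), but it was without replicate 9 (adjusted p = 0.00904). Replicate 9, the library with *erbb3b* reads, also held 843 counts of *mpz* and 636 of *mbpa*, myelin genes of Schwann cells and other glia, where replicates 7 and 8 had 1 and 0 counts of *mpz* and 0 and 8 of *mbpa*. Sham replicates 4 and 12, with 0 counts of *erbb3b*, held 83 and 121 counts of *mpz* and 45 and 97 of *mbpa*. *sox10*, on the same marker list, had 8, 17 and 35 counts in cryoinjury replicates 7, 8 and 9. The 5 Schwann and neural crest markers summed to 1.64 to 292 CPM after cryoinjury and 33.7 to 47.6 CPM after sham surgery. *foxd3* was at 0 in all groups. The part of Schwann and neural crest cells in the *erbb3b* reads was not tested. *vegfc* had 1.1, 19.2 and 19.0 CPM after cryoinjury and 1.91 and 24.1 CPM after sham surgery, a spread wider than any difference between its group means (adjusted p 0.712 and 0.736 against larval epicardium, edgeR).

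Among listed genes of the same pathways, 6 of 13 angiopoietin and Tie genes were higher after cryoinjury than in larval epicardium and 1 was lower, and after sham surgery 8 were higher and 1 lower. They included the angiopoietin receptor gene *tek* (log2 fold changes 2.48 and 4.07) and its relative *tie1* (2.91 and 2.79), whereas *angptl4*, an inhibitor of lipoprotein lipase, was lower (-4.65 and -5.22). Of 12 ErbB receptor and docking genes, 3 were higher in each adult group (*egfra*, *grb2b* and *gab1*). After cryoinjury 4 were lower and after sham surgery 3, among them *errfi1*, a feedback inhibitor of the EGF receptor in mammals (-7.16 and -5.83). *erbb3a* was at least 10.5-fold lower and *erbb4a* at least 5.68-fold lower after cryoinjury, each against 3 counts per library. Of 8 ErbB ligand genes, 3 were higher and 0 lower after cryoinjury, and 2 were higher and 1 lower after sham surgery. Beside *nrg1*, *hbegfb* was higher in both adult groups (5.02 and 2.56), and *nrg2a* after cryoinjury (1.80). *egf* had 0 counts in sham, against 21 to 45 in larval epicardium. Of 7 VEGF ligand and processing genes, *vegfab* was higher, while *figf* (the older symbol of *vegfd*) was lower in both adult groups (-2.37 and -5.41) and *ccbe1* after cryoinjury (-5.83). Of 8 VEGF receptor genes, 0 were called after cryoinjury by edgeR (1 had an unadjusted p under 0.05). After sham surgery 2 were higher, *kdr* (2.50) and *nrp2b* (2.32).

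Of 19 hypoxia genes, 5 were higher and 4 lower after cryoinjury, and 7 were higher and 3 lower after sham surgery. *epas1b*, which encodes the hypoxia-inducible factor HIF-2 alpha, was higher in both (3.91 and 5.59), as was the oxygen sensor gene *egln2* (2.89 and 3.78), whereas *slc2a1b* was lower after cryoinjury (-3.35). Of the 5 epicardial markers, 0 were higher and 2 lower in each adult group than in larval epicardium. Markers of other cells moved with these groups. All 8 cardiomyocyte markers were higher in each adult group than in larval epicardium. In each, 9 of 12 endothelial and 5 of 6 mural and smooth muscle markers were higher. After cryoinjury 1 endothelial and 1 mural marker were lower, and after sham surgery 0 were. Of 8 erythrocyte markers, 3 were higher and 3 lower after cryoinjury, and 4 higher and 3 lower after sham surgery. Their sum was 12.5 to 25.6 CPM in larval epicardium, 182 to 1478 after cryoinjury and 821 to 1433 after sham surgery. Of 8 leukocyte markers, 6 were higher after cryoinjury, and 5 were higher and 1 lower after sham surgery. The endothelial sum was 192 to 264 CPM in larval epicardium, 498 to 700 after cryoinjury and 912 to 1320 after sham surgery, and the mural sum was 201 to 441, 1017 to 1848 and 1301 to 1800 CPM. The leukocyte sum was 11.4 to 29.5, 289 to 580 and 161 to 171 CPM, with *lyz* at 0 in sham. *tek* and *tie1* are also on the endothelial list. The part of these cells in the adult values of *vegfab*, *angpt1* and *nrg1* was not tested.

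The effect of cryoinjury was tested with 3 libraries against 2 sham libraries. None of the 7 genes was called in edgeR's quasi-likelihood test, where 0.318% of all genes were called. Of the 7, 2 had an unadjusted p under 0.05 (edgeR), and how many of all genes did was not counted. The DESeq2 test also called 0 of the 7, where it called 8.70% of all genes. *vegfab* was lower in all 3 cryoinjury libraries than in both sham libraries, by 3.64-fold in the fit (log2 fold change -1.86, SE 0.78, unadjusted p = 0.0265, adjusted p = 0.209, edgeR). Marker sums of other cells were also apart: the cardiomyocyte sum was 21000.1 to 25656 CPM after cryoinjury and 28640 to 47557 CPM after sham surgery, the endothelial sum was lower after cryoinjury as well, and the leukocyte sum was higher (values above). No marker of these lists was called between the groups, and their part in the *vegfab* values was not tested. *nrg1* overlapped between the groups (log2 fold change 1.11, SE 0.86, adjusted p = 0.527, edgeR), and its highest library was cryoinjury replicate 7. *vegfaa* (-0.81, SE 0.56, adjusted p = 0.476), *angpt1* (-1.13, SE 0.78, adjusted p = 0.476), *erbb2* (0.07, SE 0.79) and *vegfc* (0.00, SE 1.13) overlapped as well. *erbb3b* had 17 counts in 1 cryoinjury library and 0 in the other 4 adult libraries (unadjusted p = 0.0396, adjusted p = 0.243, edgeR). Of the 6 pathway lists, 0 genes were called here by edgeR, and 0 to 6 genes per list had an unadjusted p under 0.05.

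By order of group means, *vegfab* ran from sham through cryoinjury and larval epicardium to non-epicardium, and only its larval neighbours overlapped. *vegfaa* ran from larval epicardium through sham and cryoinjury to non-epicardium, and its last 3 groups overlapped with their neighbours. *nrg1* ran from cryoinjury through sham to larval non-epicardium and epicardium, and only the adult groups were separated from the larval ones. *erbb2* ran from larval epicardium through cryoinjury and sham to non-epicardium, and of neighbours in this order only the adult groups overlapped. Sham also overlapped with larval epicardium (19.4 CPM in sham replicate 4, lowest larval epicardium value 17.4 CPM). *erbb3b* ran from larval epicardium through cryoinjury and non-epicardium to sham. Sham, at 0 counts, did not overlap with non-epicardium but did with cryoinjury, where replicates 7 and 8 also had 0 counts. *vegfc* and *angpt1* overlapped between every pair of neighbours.

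Across the 11 RNA libraries, which share their 4 groups and the split of stage and purification, the closest patterns by Pearson correlation of log2(CPM + 1) among 11166 named genes with a mean of at least 5 CPM were these. *vegfab* was closest to *pcbp4* (0.986) and *cdc42bpb* (0.980). *vegfaa* was closest to *tspan9b* (0.966) and *lrrc1* (0.958), and *nrg1* to *ssfa2* (0.967) and *ganabb* (0.958). *erbb2* was closest to *afap1l2* (0.953) and *elovl1b* (0.951), and *erbb3b* to *cdh15* (0.958) and *tlr4ba* (0.953). *vegfc* was closest to *tsku* (0.943) and *tgfb2l* (0.902), and *angpt1* to *egln2* (0.926) and *acadl* (0.920), lower values than for the other genes.

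In chromatin, 46 of the 48 peaks spanned 501 bases. By the deposited annotation 22 lay in introns (45.8%), 16 were intergenic (33.3%), 8 were at promoters (16.7%) and 2 in exons (4.17%), where 42.9%, 24.9%, 20.6% and 6.90% of all peaks did. The median distance to the nearest transcription start was 13953 bases, and 8276.5 bases over all peaks. The median GC content was 42.0%, against 42.7% over all peaks. Peak positions below are in the zebrafish build GRCz10, the build named in the submitters' processing notes, and a negative distance means before the start.

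Larval epicardium was compared with non-epicardium once with each reporter. With the *tcf21* reporter 6 of the 48 peaks were more and 1 less accessible in epicardium (14.6%), where 13.2% of all peaks were called (6.69% more and 6.55% less accessible). With the *tbx18* reporter 6 were more and 7 less accessible (27.1%), where 26.9% were called (13.8% and 13.1%). These shares lay near the background. With both reporters 4 peaks were higher, 1 was lower and 33 were called with neither. The 5 peaks called with both were 4 of the 11 *vegfaa* peaks and 1 *erbb2* peak. This overlap was not counted over all peaks, so whether it is more than the background was not tested.

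At *vegfaa*, 3 peaks were more accessible in epicardium with both reporters and less accessible after cryoinjury than in *tcf21* larval epicardium, and 2 of them also after sham surgery. The intergenic peak at chromosome 16, 4501846 to 4502346, lay -13506 bases from the start. It had 31.3 and 66.1 CPM in *tcf21* epicardium, 3.49 and 2.33 in *tcf21* non-epicardium, 33.4 and 34.9 in *tbx18* epicardium, and 5.75 and 3.16 in *tbx18* non-epicardium. Adult values were 15, 13.1, 11.4 and 10.5 CPM after cryoinjury and 10.2 and 5.80 CPM after sham surgery, between the larval groups. The log2 fold change was 3.94 with *tcf21* (SE 0.61, adjusted p = 1.39e-05, edgeR), 2.83 with *tbx18* (SE 0.50, adjusted p = 3.84e-05, edgeR), -1.97 in cryoinjury over *tcf21* larval epicardium (SE 0.41, adjusted p = 0.000681, edgeR) and -2.52 in sham over it (SE 0.51, adjusted p = 0.00137, edgeR). Without *tcf21* larval epicardium replicate 2 the cryoinjury value was not called (adjusted p = 0.0922).

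The intergenic peak at chromosome 16, 4554077 to 4554577, lay -65737 bases from the start. It had 77.2 and 73.6 CPM in *tcf21* epicardium against 25.9 and 10.5, and 100.8 and 74.4 CPM in *tbx18* epicardium against 21.2 and 23.7. Adults stood at 26.5, 22.7, 24.0 and 19.8 CPM after cryoinjury and 23.2 and 23.2 CPM after sham surgery, near the larval non-epicardium. The log2 fold changes were 1.96 (SE 0.42, adjusted p = 0.00114, edgeR) and 1.97 (SE 0.39, adjusted p = 0.000150, edgeR) with the 2 reporters, and -1.71 (adjusted p = 0.000325, edgeR) and -1.70 (adjusted p = 0.00643, edgeR) in cryoinjury and sham over larval epicardium. The sham value was not called without either sham library.

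The peak at chromosome 16, 4574852 to 4575352, lay -86512 bases from the *vegfaa* start, in the last of 12 introns of another gene's transcript. Of 7 other peaks on that transcript, 6 are annotated to *ttc29*, so the assignment to *vegfaa* rests on the annotation's nearest start. It had 77.2 and 114 CPM in *tcf21* epicardium against 12 and 18.7, and 66.2 and 64.1 CPM in *tbx18* epicardium against 3.24 and 4.74. Adults had 52.9, 37.9, 32.7 and 32.9 CPM after cryoinjury and 41.3 and 47.8 CPM after sham surgery, again between the larval groups. The log2 fold changes were 2.69 (SE 0.44, adjusted p = 2.57e-05, edgeR) and 4.09 (SE 0.46, adjusted p = 1.41e-08, edgeR) with the reporters. In cryoinjury over larval epicardium it was -1.30 (SE 0.33, adjusted p = 0.00466, edgeR), and without *tcf21* larval epicardium replicate 2 that call was lost (adjusted p = 0.0957). In sham over larval epicardium it was -1.10 (SE 0.39, adjusted p = 0.0696, edgeR), not called.

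Another *vegfaa* peak went the other way. The intergenic peak at chromosome 16, 4546285 to 4546785, lay -57945 bases from the start and had 6.71 and 6.01 CPM in *tcf21* epicardium against 153 and 64.2, and 11.1 and 2.57 CPM in *tbx18* epicardium against 37.2 and 39.0. It was lower in epicardium by log2 fold changes of -4.10 (SE 0.62, adjusted p = 9.20e-06, edgeR) and -2.33 (SE 0.51, adjusted p = 0.000534, edgeR), and adult values from 2.65 to 9.67 CPM lay close to larval epicardium (adjusted p 0.855 and 0.702, edgeR). The *vegfaa* promoter peak, by contrast, was called in none of the 6 comparisons: it had 19.0 and 57.1 CPM in *tcf21* epicardium against 93.3 and 61.8, and 53.9 and 54.4 CPM in *tbx18* epicardium against 39.7 and 55.8. Its log2 fold change was -1.08 with *tcf21* (SE 0.43, adjusted p = 0.0880, edgeR) and 0.19 with *tbx18* (SE 0.39, adjusted p = 0.750, edgeR), or an adjusted p of 0.0224 with *tcf21* when epicardium replicate 2 was left out. The *vegfaa* RNA was 7.11-fold higher in epicardium.

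**Figure D4:**
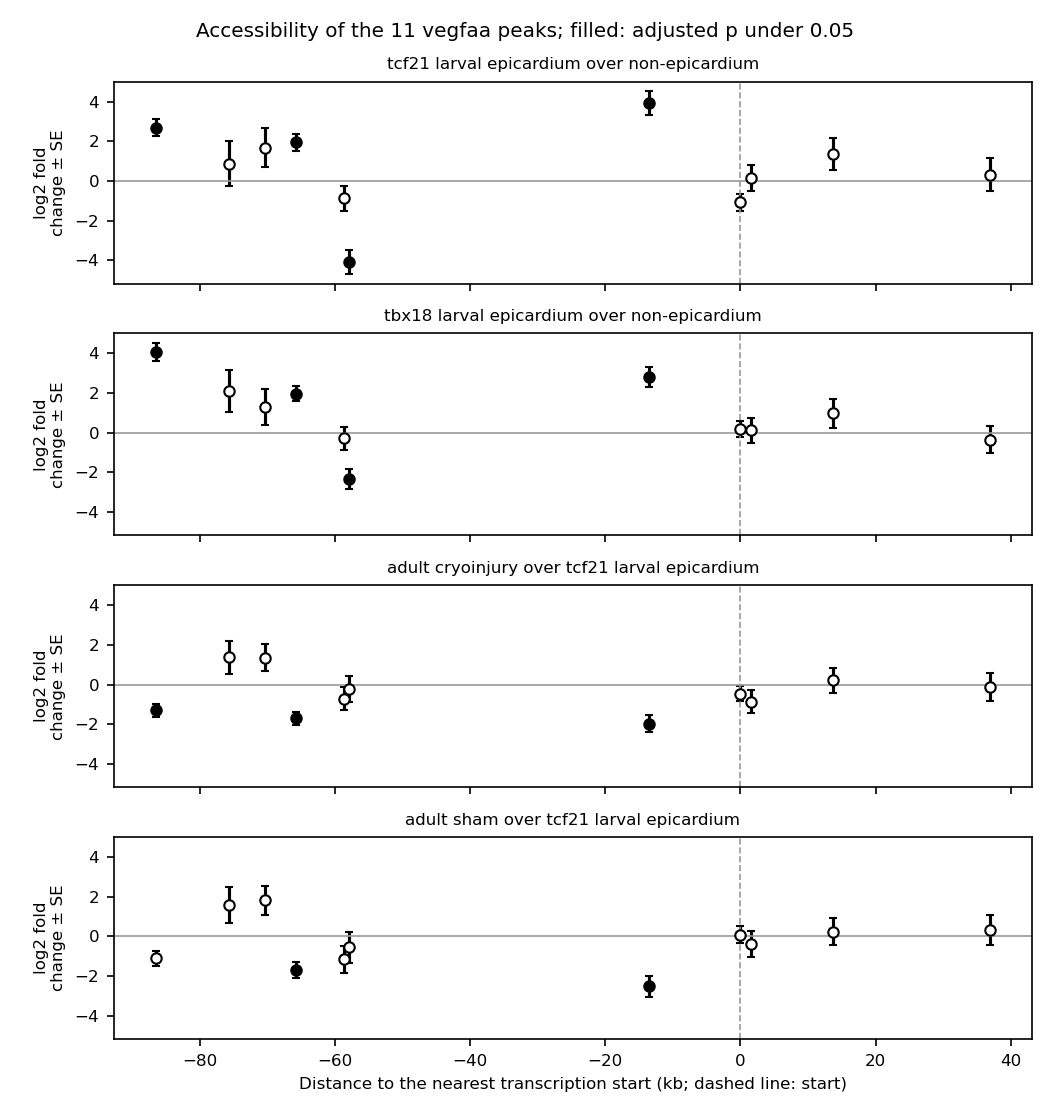
Log2 fold change with SE of the 11 *vegfaa* peaks in 4 ATAC comparisons, against distance to the nearest transcription start in kb (dashed line), filled where the adjusted p is under 0.05. The called peaks lie between -86512 and -13506 bases, and the promoter peak and the peaks after the start are not called.

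At *erbb2* the reporters differed. The promoter peak at chromosome 12, 9400166 to 9400666, had 43.6 and 21.0 CPM in *tcf21* epicardium against 3.99 and 5.83 in *tcf21* non-epicardium. With *tbx18* both populations were open, with 23.9 and 29.3 CPM in epicardium and 24.5 and 27.9 CPM in non-epicardium. The log2 fold change was 2.81 with *tcf21* (SE 0.57, adjusted p = 0.000623, edgeR) and 0.02 with *tbx18* (SE 0.43, adjusted p = 0.979, edgeR). The difference between the reporters was 2.79 (SE 0.72, adjusted p = 0.0382, edgeR), the 1 call among the 48 peaks where 1.51% of all peaks were called. It missed the threshold with 1 count subtracted everywhere (adjusted p = 0.0530), with only the larval groups fitted (0.0684) and without each of 6 of the 8 larval libraries. Adult values were 24.7, 10.5, 16.4 and 14.4 CPM after cryoinjury and 21.8 and 21.7 CPM after sham surgery, not called against larval epicardium.

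Inside *erbb2*, the peak in intron 1 of 26 (chromosome 12, 9379056 to 9379556) was higher in epicardium with both reporters. It had 38.0 and 28.5 CPM against 14 and 2.33 with *tcf21*, and 50.5 and 55.9 CPM against 15.1 and 24.8 with *tbx18*. The log2 fold changes were 1.83 (adjusted p = 0.0161, edgeR) and 1.45 (adjusted p = 0.0121, edgeR). The first was lost without *tcf21* epicardium replicate 1 or non-epicardium replicate 2, and the second without *tbx18* epicardium replicate 2 or non-epicardium replicate 1 (adjusted p from 0.0613 to 0.194). No *erbb2* peak was called in adults against larvae or in cryoinjury against sham. *erbb3b* had no peak annotated to it alone, and its chromatin is not described here.

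**Figure D5:**
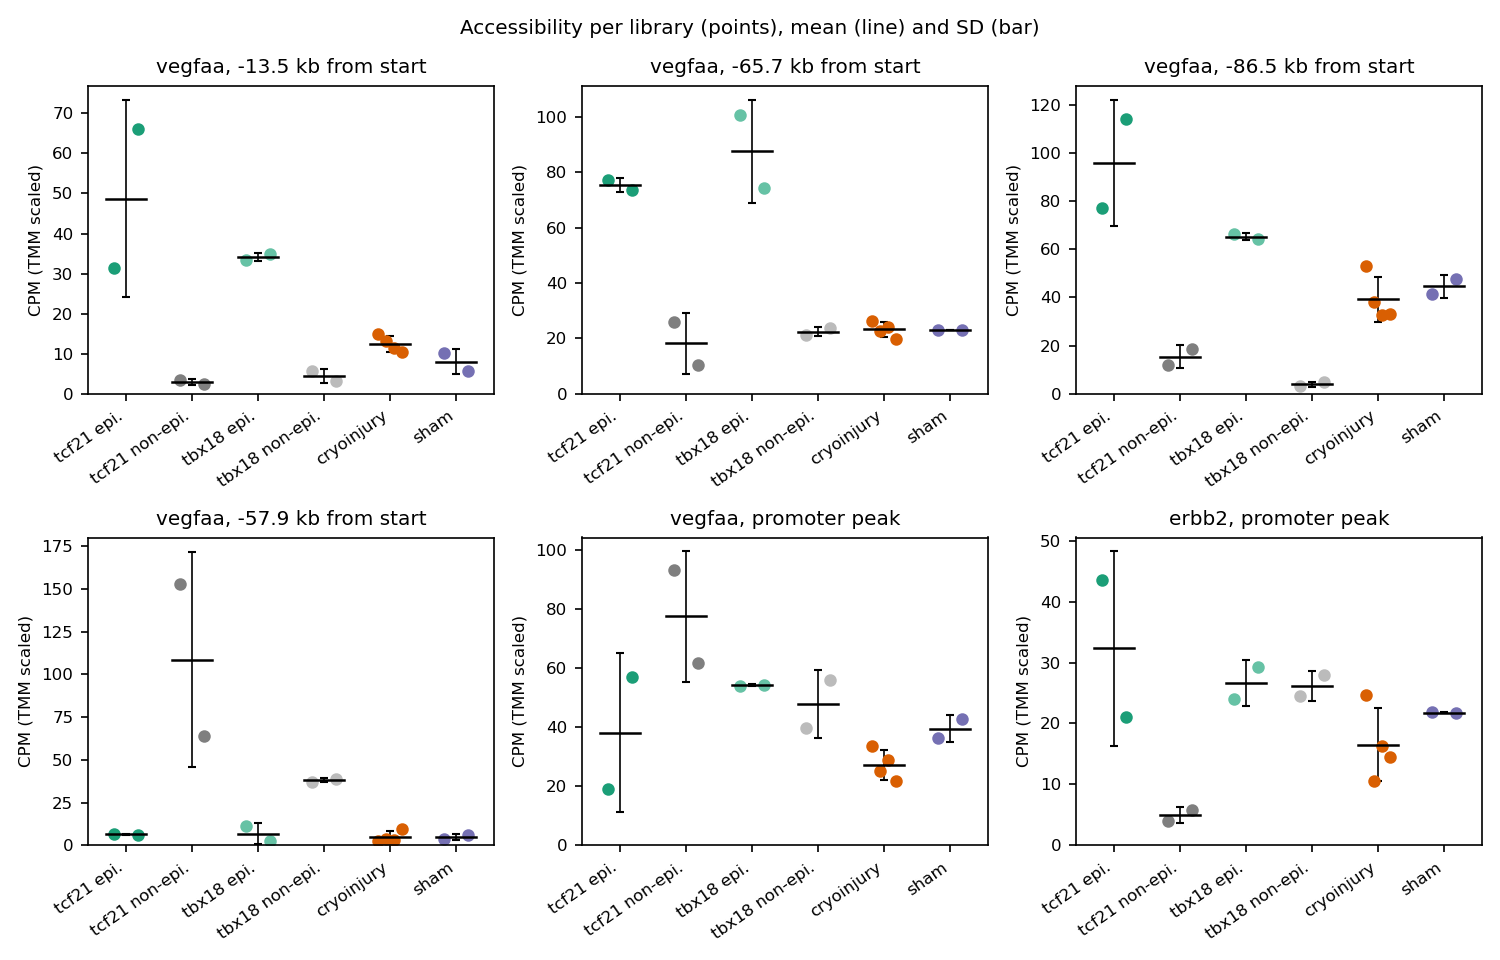
Accessibility of 5 *vegfaa* peaks and the *erbb2* promoter peak in each of the 14 ATAC libraries, in TMM-scaled CPM from 0, with group mean (line) and SD (bar). At the *erbb2* promoter the *tcf21* non-epicardium libraries lie at 3.99 and 5.83 CPM, under both *tbx18* non-epicardium libraries at 24.5 and 27.9 CPM.

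The other ligand genes had called peaks mainly with the *tbx18* reporter, whose libraries held 2051230 to 6248597 counts against 755606 to 2273259 with *tcf21*. At *nrg1*, the peak in intron 1 of 9 at chromosome 10, 7475263 to 7475763, had 4.02 and 1.54 CPM in *tbx18* epicardium against 21.9 and 15.8 in non-epicardium (log2 fold change -2.63, SE 0.64, adjusted p = 0.00160, edgeR). With *tcf21* it held 1 count in each epicardium library, where a 1 can mean 1 read or none. After cryoinjury it had 7.06, 4.80, 11 and 9.47 CPM and after sham surgery 2.73 and 5.07 CPM. In cryoinjury it was at least 1.79-fold higher than in larval epicardium, computed against 3 counts per library (adjusted p = 0.0496, edgeR). That call was lost with DESeq2 size factors, the trend on abundance removed, halved counts and the DESeq2 test, and without either larval library or cryoinjury replicate 3 or 4. The *nrg1* promoter peak nearest a start was not called in any comparison.

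At *vegfab*, whose RNA was highest in adults, none of the 7 peaks was called in adults against larvae by edgeR. Over all peaks 14% were called after cryoinjury and 7.64% after sham surgery. At such shares 7 peaks are too few for a lack of calls to stand out from the background. The *tcf21* larval epicardium libraries were also shallow, with 941610 and 755606 counts. Whether *vegfab* chromatin changed with its RNA is therefore not decided here. The assignment of 2 of the 7 rests on the annotation's nearest start, since they lie in an intron of another transcript, on which 6 of 12 other peaks are annotated to *si:dkey-14d8.7*. The 1 called peak, in intron 5 of 8 at chromosome 4, 5583437 to 5583937, had 4.83 and 4.11 CPM in *tbx18* epicardium and 1 count in each non-epicardium library, at least 2.83-fold higher against 3 counts per library (adjusted p = 0.00339, edgeR, and 0.132 without non-epicardium replicate 1). The *vegfab* promoter peak nearest a start had 10.1 and 7.51 CPM in *tcf21* larval epicardium, 18.5, 10.03, 15.4 and 15.2 CPM after cryoinjury and 4.44 and 10.1 CPM after sham surgery. All of these groups overlapped, cryoinjury and larvae narrowly (lowest cryoinjury value 10.03, highest larval value 10.06 CPM). The log2 fold changes of 0.72 and -0.37 in cryoinjury and sham over larval epicardium had adjusted p of 0.466 and 0.798 (edgeR). *vegfc* had 3 called peaks with *tbx18*, 1 higher and 2 lower in epicardium, led by an intronic peak at chromosome 1, 38175334 to 38175834, with 1.61 and 1.03 CPM in epicardium against 15.1 and 21.6 (log2 fold change -3.65, SE 0.72, adjusted p = 0.000156, edgeR). *angpt1*, with the most peaks, had 2 called, both lower in *tbx18* epicardium. The first, at chromosome 19, 47354389 to 47354889, had 7.45 and 3.08 CPM against 17.6 and 21.6 (log2 fold change -1.79, SE 0.60, adjusted p = 0.0221, edgeR). That call was lost without *tbx18* epicardium replicate 2 or either non-epicardium library (adjusted p from 0.0543 to 0.180).

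In adults against *tcf21* larval epicardium, 4 of the 48 peaks were called after cryoinjury, 1 higher and 3 lower (8.33%, where 14% of all peaks were called, 3.98% higher and 10.1% lower), and 2 after sham surgery, both lower (4.17%, where 7.64% were called, 2.34% higher and 5.30% lower). The lower ones were *vegfaa* peaks in both. Between cryoinjury and sham edgeR called 0 of the 48 peaks and 0.00162% of all peaks. The DESeq2 test called 0 of the 48 and 0.0552% of all peaks. Of the 48, 4 had an unadjusted p under 0.05 (edgeR), and how many of all peaks did was not counted. Those 4 were 2 *nrg1* and 2 *vegfab* peaks, each with a higher mean after cryoinjury and adjusted p from 0.659 to 0.714 (edgeR). Of the 8 promoter peaks, 1 was called with *tcf21* (*erbb2*) and 0 with *tbx18* or in adults. The shares called over all promoter peaks were not counted, so these counts have no background beside them. Over the 5 comparisons of groups, 33 peaks were called in 0, 9 in 1, 3 in 2, 1 in 3 and 2 in 4. The same count was not made over all peaks.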

How the data were processed

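Polyadenylated RNA and Tn5-accessible DNA were measured in 11 and 14 zebrafish libraries. The authors deposited whole-number read counts per gene and per peak. The submitters' processing notes name Bowtie 1.2.3, SAMtools 1.10, MACS2 2.2.7.1, HOMER, DiffBind 3.0.13, STAR 2.7.3a, featureCounts, edgeR 3.32.1 and build GRCz10, with no role or settings. The lowest deposited ATAC count is 1, which may hide a 0. The deposited ATAC signal columns are those counts scaled to one total, without peak width, and were only checked. The deposited annotation gives GC content as a fraction (printed as a percent) and the distance to the nearest start, entered as a score. Gene lengths are those deposited.

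Counts were tested with edgeR 4.0.16 (R 4.3.3) by its quasi-likelihood F test (two-sided, TMM scaling, filterByExpr with minimum count 10 and minimum total 15). Each assay had one fit over all its libraries, with a mean for each group. The SE is the absolute log2 fold change over the square root of F. Groups at or under 3 counts per library give lower bounds, computed against the highest CPM that 3 counts stand for in a library of that group, and floors cover counting error only. Larval RNA columns carry numbers that do not match the titles, so libraries are lettered A to C within their group. Alternatives were DESeq2 size factors, total count, a trend on abundance removed, the DESeq2 1.42.0 test, no filter, only the compared groups, a replicate block (ATAC), 1 subtracted from or halving of ATAC counts, and each library left out. The steps were tested on simulated data.

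The 7 genes and the lists were chosen with earlier results of these data known. Named were all members, called genes of the pathway lists, the 2 genes most like each member, each gene's promoter peak nearest a start, the called member peak of each gene with the lowest adjusted p in each comparison, and peaks called in 3 or more comparisons. The lists also held names that matched no gene of the table.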

Additional observations from a re-analysis of the deposited data

Results flagged for a closer look

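Of 48 cryoinjury groups of 4 ATAC libraries, 1 per peak, 3 had 1 library far from the others by Dixon's criterion, and chance flags about 1 in 20 groups. In all 3 it was cryoinjury replicate 1, the shallowest cryoinjury library, with 1070024 counts. The *erbb2* peak in exon 23 of 27 had 12.3 CPM there, the *vegfab* peak -19911 bases from the start, in an intron of another transcript, 9.70 CPM, and the *vegfc* peak -5654 bases from the start 14.1 CPM. None of these peaks was called in a comparison with cryoinjury.

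The epicardium effect at the *erbb2* promoter peak differed between the *tcf21* and *tbx18* reporters, by 2.79 on the log2 scale (SE 0.72, adjusted p = 0.0382, edgeR). Non-epicardium had 3.99 and 5.83 CPM with *tcf21* and 24.5 and 27.9 CPM with *tbx18*, which are different cell sorts of different depth, and their part was not tested.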

How the results depend on the processing

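The larval calls of *vegfaa* and the adult calls of *nrg1* and *vegfaa* after cryoinjury and of *vegfab* in both adult groups held under every alternative run. The number of the 7 genes called in larval epicardium over non-epicardium was 2, but 5 with only the compared groups fitted (where 29.1% of all genes were called, against 13.4%). With 1 library left out it was 1 to 3, where 7.58% to 11.7% of all genes were called. It was 1 without epicardium library A or non-epicardium library A or B. In sham over larval epicardium it was 4, where 37.2% of all genes were called. It was 3 without each larval epicardium library, where 25.1% to 28.9% were. Calls were also lost without either sham library, but 1 sham library then remained, so those counts are not compared. Of peaks, the difference between reporters gave 0 calls with 1 subtracted from every count and 0 with only the compared groups. There 0.712% and 0.308% of all peaks were called, against 1.51% in the main fit. Cryoinjury over larval epicardium gave 2 peaks under the replicate block and 2 to 5 with 1 library left out (2 without *tcf21* larval epicardium replicate 2), sham over larval epicardium 1 to 2 (1 without either sham library), and *tbx18* larval epicardium 7 to 11 (7 without non-epicardium replicate 1). The replicate block took the calls of the *nrg1* peak in intron 1 (adjusted p = 0.242) and of the *vegfaa* peak -86512 bases from the start (0.0890) in cryoinjury over larval epicardium. Same-numbered ATAC libraries had correlations of -0.0414 to 0.124, the labels do not say that numbers pair them, and the RNA columns allow no block.

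Uncalled values changed sign. *vegfc* in cryoinjury over sham was -0.15 with DESeq2 size factors, -0.33 with the trend removed, -0.026 without a filter, -0.15 with the DESeq2 test and -0.083 with only the compared groups. *nrg1* in the larval comparison was 0.48 under total count scaling and 0.010 with the trend on abundance removed, which also gave -0.033 for *erbb2* in cryoinjury over sham and 0.042 for *erbb3b* in cryoinjury over larval epicardium. The *erbb2* promoter peak was -0.030 with *tbx18* after 1 was subtracted. With 1 library left out, *nrg1* ran from -0.73 to 0.041 in the larval comparison, *vegfc* from -0.92 to 0.33 in cryoinjury and from -3.33 to 0.39 in sham over larval epicardium. In cryoinjury over sham, *vegfc* ran from -0.92 to 2.80, *erbb2* from -0.42 to 0.88 and *angpt1* from -2.15 to 0.41. Promoter peaks ran from -0.23 to 1.21 (*vegfc*), -0.70 to 0.41 (*angpt1*), -1.36 to 1.94 (*vegfab*) and -1.25 to 0.92 (*nrg1*) with *tcf21*, and from -0.44 to 0.55 (*angpt1*), -0.12 to 0.26 (*erbb2*) and -0.045 to 0.59 (*vegfaa*) with *tbx18*. The cause was not tested. Under the other scalings the median of all genes ran from 0.18 to 0.93 in the larval comparison (0.32 with TMM), from -0.15 to -0.96 in cryoinjury (-0.59) and from -0.44 to -1.53 in sham over larval epicardium (-0.92). Over unfiltered genes the last 2 were -1.53 and -2.15 with edgeR and -1.81 and -2.21 with DESeq2. With TMM and the filter on low counts, the median in sham over larval epicardium was -2.69 without sham replicate 4. It was -2.03 without replicate 12, and in each of these fits 1 sham library remained. Depth limits the small peaks, where 3 counts are up to 4.51 CPM.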
